A study of Bos taurus with 47 samples.

Results

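The genes described here are oocyte transcripts that were low in IVF blastocysts and high again in cells cultured from IVF blastocysts. A gene was taken when its oocyte median was at least 100 normalized counts, its IVF blastocyst median was at most 25% of the oocyte median, and its median in IVF blastocyst-derived cells was at least 50% of the oocyte median and at least 4 times the IVF blastocyst median. Of 20526 genes, 7779 met the oocyte minimum, 2047 of these were lost by the IVF blastocyst, and 143 met the whole rule. These 143 members made up 6.99% of the lost genes, while 1901 lost genes were not regained and 3 lost genes, none of which met the rule, were left out by their identifiers. The members were thus selected on their levels in oocytes, IVF blastocysts and IVF derived cells, and those levels are given as a description, with no test.

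The study profiled bovine mRNA in 47 libraries of 12 groups. Embryos made by somatic cell nuclear transfer (scNT) came from enucleated oocytes fused with serum-starved ear fibroblasts at passage 4 to 5, and were sampled as 2-cell and 8-cell embryos, as morulae and as blastocysts, beside cells derived from scNT blastocysts. Embryos made by in vitro fertilization (IVF) with Holstein bull semen were sampled at the same stages, again beside blastocyst-derived cells. The starting cells were oocytes matured in culture to metaphase II (MII) and primary ear fibroblasts. Per the labels, embryos were pools of 20 taken on days 2, 3, 6 and 8, and each group had 4 libraries except scNT morulae, with 3. The culture of the derived cells is not described in the labels. The labels do not say whether libraries of a group came from different animals or cultures. A p-value here thus sets a difference against the spread of pools, part of which may be technical.

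An MII oocyte is transcriptionally quiet and carries RNA stored during its growth. During the maternal-to-embryonic transition the stored RNA is degraded while the embryonic genome begins to be transcribed, in cattle mainly around the 8-cell stage. A blastocyst has an inner cell mass and an outer trophectoderm, and its cells can attach and proliferate when placed in culture. A gene with oocyte RNA can thus be transcribed again later from the embryonic genome.

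The values are 1 normalized count per gene and library, a scale that does not correct for gene length, so levels are compared between groups for the same gene and not between genes. Over the 46 libraries whose reads could be recovered, depth ran from 4608099 to 16642373 reads. Libraries of a group correlated at r between 0.896 and 0.990 over genes. Fibroblast replicate 3, IVF 2-cell replicate 3 and scNT morula replicate 4 stood apart from their groups. For 31 members fibroblast replicate 3 was over 2 times every other fibroblast library, and for 36 members it was under 50% of every other one. For IVF 2-cell replicate 3 these counts were 10 and 20 members, and for scNT morula replicate 4, in a group of 3, they were 0 and 27. The genes are given only by Ensembl identifiers, and 0 of the 143 members were found in the annotation table used here. No member can therefore be given a name, a role or a sequence, and the labelled cell types could not be checked against marker genes.

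The members' RNA stayed close to the oocyte level in 2-cell embryos of both methods and in scNT 8-cell embryos, was somewhat lower in IVF 8-cell embryos, was low in morulae and blastocysts, and was back at the oocyte level in derived cells of both methods. In oocytes the median member stood at 299.8 normalized counts. Along the scNT series the median over members was 306.65 in 2-cell embryos, 307.45 in 8-cell embryos, 56.1 in morulae, 28.0 in blastocysts and 387.95 in derived cells. Along the IVF series it was 300.55, 266.2, 105.5, 36.9 and 392.2 at those stages. In fibroblasts it was 246.75. Because each library was made from a pool of embryos or a culture, fewer cells of a type and less RNA per cell cannot be told apart.

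**Figure D1:**
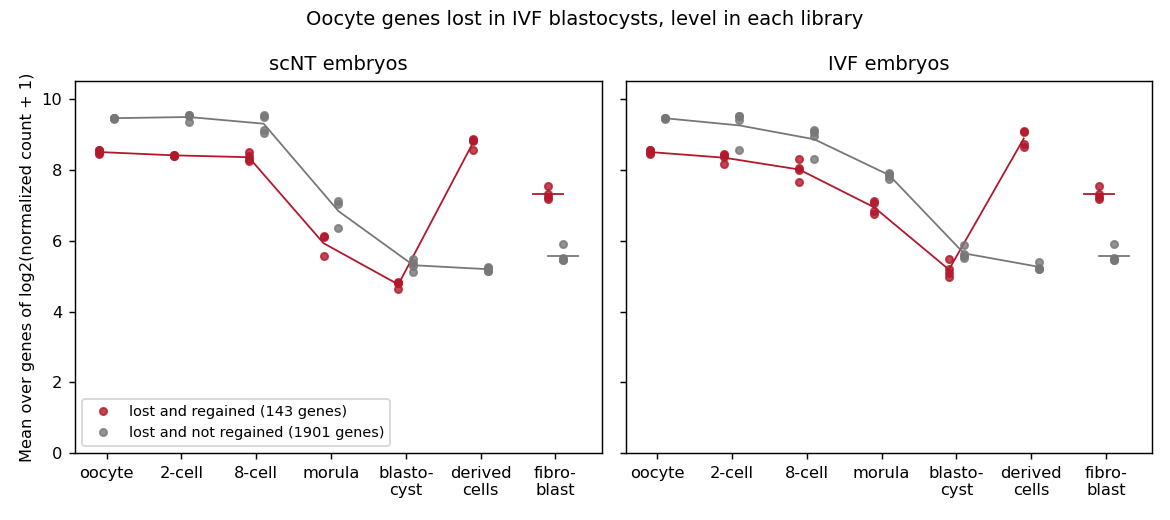
Each point is 1 library, the mean over genes of log2(normalized count + 1), for the 143 members (red) and the 1901 genes lost and not regained (grey), with lines through the group means, in scNT (left) and IVF (right) embryos. Both gene groups were low in blastocysts, and in derived cells the members were high, with means of 8.77 in scNT and 8.88 in IVF derived cells. Oocytes, IVF blastocysts and IVF derived cells were used to choose the genes.

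As a mean of log2(value + 1) over the members, scNT libraries stood at 8.40 ± 0.019 in 2-cell embryos, 8.35 ± 0.11 in 8-cell embryos, 5.93 ± 0.33 in morulae, 4.76 ± 0.094 in blastocysts and 8.77 ± 0.14 in derived cells (SD, n = 3 for morulae, 4 otherwise). IVF libraries stood at 8.34 ± 0.13, 8.00 ± 0.26, 6.94 ± 0.17, 5.18 ± 0.22 and 8.88 ± 0.23 (n = 4 each), fibroblasts at 7.32 ± 0.16 and oocytes at 8.50 ± 0.058. The lost genes that were not regained stood at 5.19 in scNT and 5.26 in IVF derived cells, below their own means of 5.31 and 5.64 in scNT and IVF blastocysts. The members' share of all normalized counts was 1.68% in scNT derived cells and 0.103% in scNT blastocysts, against 1.55% in IVF derived cells and 0.123% in IVF blastocysts. It was 1.52% in fibroblasts and 1.23% in oocytes.

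Single members followed the median course with few exceptions up to the 8-cell stage. In scNT embryos 135 members at the 2-cell stage and 128 at the 8-cell stage had medians between 50% and 200% of the oocyte median. In IVF embryos these counts were 136 and 114. In IVF 8-cell embryos 108 members were below their oocyte median, the median member stood at 78.9% of it, and the highest library mean, 8.29, lay below the lowest of oocytes, 8.43. Also below their oocyte medians were 1524 of the 1901 lost genes not regained and 4660 of the 7779 genes over the oocyte minimum. Over those 7779 genes the library means did not overlap either, at most 8.90 in IVF 8-cell embryos and at least 8.99 in oocytes. In morulae 103 members in scNT and 27 in IVF embryos were at or under 25% of the oocyte median, and all 27 of the IVF morulae were so in scNT morulae too. These were 72.0% and 18.9% of the members, against 66.9% and 25.3% of the lost genes that were not regained. Over the 7779 genes above the oocyte minimum the shares were 20.2% in scNT and 7.11% in IVF morulae. In scNT blastocysts 136 members (95.1%) were at or under 25%, a condition that the rule imposed on IVF blastocysts only. So were 1823 of the 1901 lost genes that were not regained (95.9%), so this was not particular to the members. The oocyte medians in these shares were the ones that chose the genes.

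**Figure D2:**
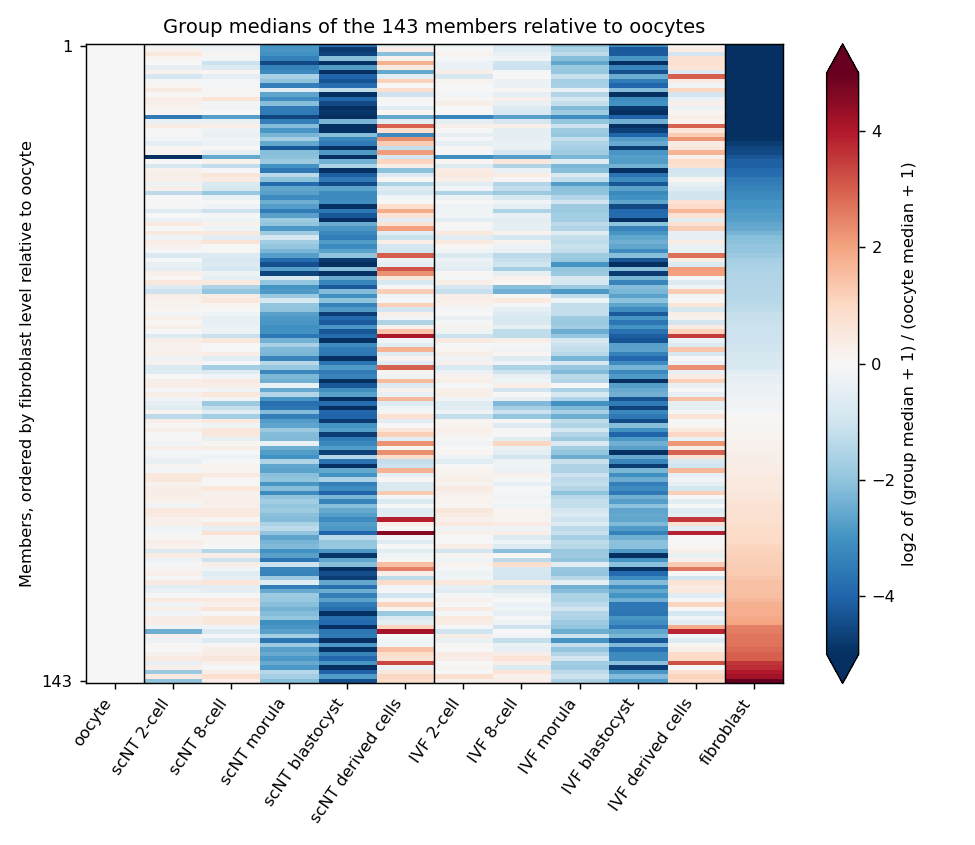
Each row is 1 of the 143 members, ordered by its fibroblast level relative to oocytes, and each column is a group. Colour gives log2 of the ratio of (group median + 1) to (oocyte median + 1), blue for lower and red for higher. Morula and blastocyst columns are mostly blue, derived-cell columns are mostly white to red, and the fibroblast column runs over the whole scale, from 45 members at or under 25% of oocytes to 31 members over 2 times oocytes.

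Members at the edges of the rule differed little from genes left out. The gene ENSBTAG00000015801 entered with an oocyte median of 100.55, and ENSBTAG00000000575 missed the minimum with 98.5. The gene ENSBTAG00000037508 entered with 50.5% of its oocyte median in IVF derived cells, and ENSBTAG00000046556 was left out with 49.8%. For the loss, the nearest member stood 4.15-fold and the nearest gene outside 3.94-fold lower in IVF blastocysts than in oocytes.

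The return in derived cells was then followed in scNT libraries, which the rule did not use. All 3 conditions on blastocysts and derived cells were met in scNT libraries by 117 of the 143 members (81.8%), by 26 of the 1901 lost genes that were not regained in IVF cells (1.37%), and by 172 of the 7779 genes over the oocyte minimum (2.21%). The oocyte medians in these conditions were the ones that chose the members. The 117 genes made up 68.0% of the 172 genes that meet the conditions in scNT libraries. Among the 26 members that did not meet them, 13 failed only because their scNT derived-cell median was under 50% of the oocyte median.

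Between scNT derived cells and scNT blastocysts, 141 of the 142 members tested were higher in derived cells, where 32.9% of all 12786 genes tested were higher and 34.1% were lower (limma, Benjamini-Hochberg adjusted p under 0.05, n = 4 and 4). The median log2 difference over these members was 3.68, and that of all genes tested was -0.03. A total of 51 members had passed the filter on low values through the derived cells alone, so the test was also run with no filter, where 142 of all 143 members were higher. For 140 members every derived-cell library lay above every blastocyst library, which was not counted over all genes. No member was lower by limma, with 0 also at an unadjusted p under 0.05 and 0 by edgeR and DESeq2.

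The member ENSBTAG00000009443 showed the largest difference among members that the rule for named genes admitted. It had 2668.1, 2403.4, 2651.3 and 2460.6 normalized counts in scNT derived cells, against 3.3, 7.7, 10.7 and 3.8 in scNT blastocysts. Every derived-cell library lay far above every blastocyst library, with a log2 difference of 8.55 (SE 0.29, limma adjusted p = 1.458e-09). Its oocyte libraries had 289.9 to 343.3 and its fibroblast libraries 6.8 to 12.1 normalized counts, so the derived cells exceeded both starting cells. The second was ENSBTAG00000038093, with 3261.7, 6264.8, 3410.2 and 5662.2 in scNT derived cells, against 11.6, 9.3, 18.4 and 11.4 in scNT blastocysts (log2 difference 8.39, SE 0.25, limma adjusted p = 9.122e-10). Every derived-cell library lay above every oocyte, scNT embryo and fibroblast library, and fibroblast replicate 3, at 860.7, was the highest fibroblast library.

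**Figure D3:**
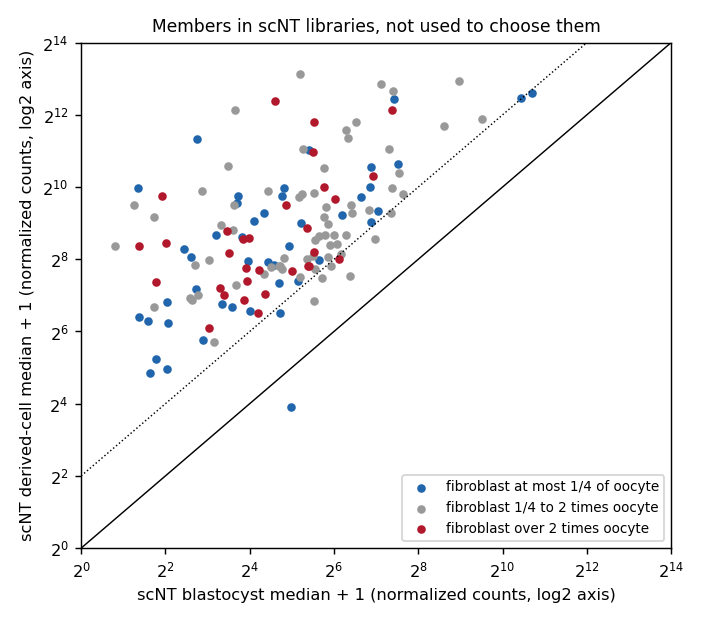
Each point is 1 member, with its scNT blastocyst median + 1 on the x axis and its scNT derived-cell median + 1 on the y axis (normalized counts, log2 axes), coloured by its fibroblast level relative to oocytes. The solid line marks equal levels and the dotted line a 4-fold difference. A total of 132 members had a derived-cell median at least 4 times the blastocyst median, and 1 member lies below the line of equal levels.

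Members differed in how far they returned, and mostly alike in both methods. In scNT derived cells 94 members had medians between 50% and 200% of the oocyte median, 35 were over 2 times it, 9 lay between 25% and 50%, and 5 were at or under 25%. In IVF derived cells, where the rule set the lower limit, 33 members were over 2 times the oocyte median, and 29 members were so in both methods. For 132 members the scNT and IVF derived-cell medians were within 2-fold of each other, for 9 the scNT median was under 50% of the IVF one, and for 2 it was over 2 times it. Across the 143 members the log2 medians of scNT and IVF derived cells correlated at r = 0.926, those of scNT derived cells and oocytes at r = 0.684, and those of scNT derived cells and fibroblasts at r = 0.378. These are descriptions across genes that share libraries and gene length, and genes are not independent replicates.

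A pair of members with low values in scNT derived cells was singled out after the values had been seen. The member ENSBTAG00000031194 had 183.0, 18.4, 119.8 and 95.4 normalized counts in scNT derived cells and 1032.9, 852.9, 1495.3 and 1417.1 in IVF derived cells, with no overlap. Its oocyte libraries had 113.4 to 160.0, so IVF derived cells stood above oocytes while scNT derived cells lay below, within and above their range. The member ENSBTAG00000010716 had 19.8, 8.3, 56.4 and 5.7 in scNT derived cells, against 29.8, 31.0, 26.1 and 31.8 in scNT blastocysts. It was the 1 member tested that was not called higher in scNT derived cells (log2 difference -0.89, limma adjusted p = 0.188). In IVF derived cells it had 204.8, 172.6, 433.6 and 436.5.

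Both methods showed a fall between the 8-cell embryo and the morula, and in scNT embryos it was larger than the fall from morula to blastocyst. The mean log2 level of the members was 5.93 in scNT morulae, against 8.35 in scNT 8-cell embryos, and 4.76 in scNT blastocysts. In IVF embryos it was 6.94 in morulae, against 8.00 in 8-cell embryos, and 5.18 in blastocysts, which were chosen to be low. How the loss divides between the steps therefore cannot be compared between the methods. From the scNT 8-cell embryo to the scNT morula 134 of 143 members fell and 0 rose, where 37.7% of all 13702 genes tested fell and 31.2% rose (limma, n = 3 and 4). The median log2 change of the members was -2.53, against -0.17 for all genes. Without scNT morula replicate 4, 133 members fell and their median was -2.30. From the IVF 8-cell embryo to the IVF morula 117 of 143 members fell and 0 rose, where 26.0% of 13407 genes fell and 19.8% rose (limma, n = 4 and 4), with medians of -1.07 for the members and -0.19 for all genes. In the scNT step 17 members had passed the filter on low values through the 8-cell embryos alone, and in the IVF step 1 had. With no filter 133 members fell in scNT and 114 in IVF embryos, and 0 rose in either. At an unadjusted p under 0.05 no member rose in either step, and edgeR and DESeq2 called 0 higher. The rule took genes high in oocytes and low in IVF blastocysts, so falls between these stages were favoured by the choice of members. The lost genes that were not regained fell alike, from a mean log2 level of 9.30 to 6.83 in scNT embryos. In IVF embryos these genes went from 8.86 to 7.85. The members that fell in both methods numbered 113, which is 84.3% of the scNT list and 96.6% of the IVF list. Of all members tested, 81.8% fell in IVF and 93.7% in scNT embryos. The overlap was thus close to what these shares alone would give, although the steps of the methods share no library.

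In scNT morulae the lowest values relative to 8-cell embryos belonged to ENSBTAG00000003959. It had 6.6, 5.0 and 3.0 normalized counts in scNT morulae, against 140.0, 109.8, 173.1 and 109.4 in scNT 8-cell embryos (log2 change -4.54, SE 0.37, limma adjusted p = 4.907e-05). It had 636.7 to 853.9 in scNT derived cells, above the oocytes at 122.0 to 162.7. The member ENSBTAG00000018747 had 24.5, 23.7 and 4.5 in scNT morulae, against 306.6, 209.8, 274.7 and 197.7 in scNT 8-cell embryos (log2 change -4.01, SE 0.54, limma adjusted p = 2.632e-04). In scNT derived cells it stayed below oocytes, at 55.8, 14.7, 31.7 and 42.0, and in IVF derived cells it had 109.5 to 150.5.

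In IVF embryos the named members were ENSBTAG00000009663 and ENSBTAG00000018810. The first had 80.2, 123.4, 178.5 and 66.0 normalized counts in IVF morulae, against 410.5, 453.7, 357.0 and 505.7 in IVF 8-cell embryos (log2 change -2.03, SE 0.30, limma adjusted p = 7.764e-04). The second had 97.2, 60.9, 115.5 and 28.3 in IVF morulae, against 242.2, 333.9, 153.6 and 452.7 in IVF 8-cell embryos (log2 change -2.03, SE 0.46, limma adjusted p = 0.006237). For both the groups did not overlap. Their early values varied with the library: in IVF 2-cell replicate 3 they stood at 990.5 and 3989.8, against at most 388.4 and 486.8 in the other IVF 2-cell libraries. Both were high in fibroblasts, at 4033.3 to 4487.9 and 5851.0 to 12997.8, and the part of that library in their levels was not tested.

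**Figure D4:**
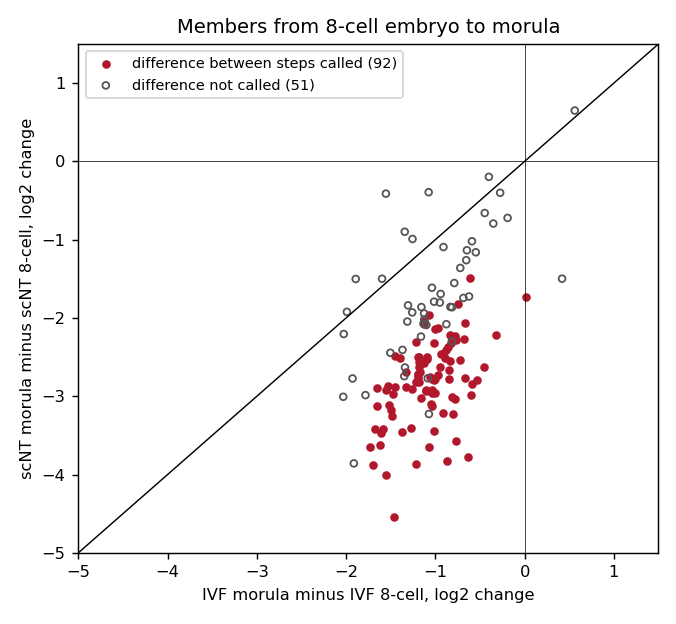
Each point is 1 of the 143 members, with its log2 change from 8-cell embryo to morula in IVF embryos on the x axis and in scNT embryos on the y axis; the diagonal marks equal changes. Filled red points are the 92 members for which the difference between the steps passed the test, and 134 of 143 members lie below the diagonal, with a steeper fall in scNT embryos.

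The members were lower in scNT than in IVF morulae. Medians were lower in scNT morulae for 138 of 143 members, and for 98 members every scNT library lay below every IVF library. Neither count was made over all genes. The lost genes that were not regained were lower too, at a mean log2 level of 6.83 in scNT and 7.85 in IVF morulae. By limma 74 of 143 members were lower and 0 were higher in scNT morulae, where 11.3% of all 13590 genes tested were lower and 7.37% were higher (n = 3 and 4). At an unadjusted p under 0.05, 1 member was higher and 107 were lower, and edgeR and DESeq2 called 0 higher. The median log2 difference was -1.02 for the members and 0.05 for all genes. The count depended on single libraries: without IVF morula replicates 1 to 4 in turn it was 40, 1, 21 and 23. The filter on low values had been passed by 17 members through IVF morulae alone, and with no filter 61 members were lower.

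The lost genes that were not regained had similar shares of the oocyte level in morulae. Their median gene had 19.2% of the oocyte level in scNT and 34.4% in IVF morulae, against 17.4% and 34.3% for the members. The member with the largest difference admitted was ENSBTAG00000027181, with 68.7, 71.0 and 15.1 normalized counts in scNT morulae, against 195.9, 267.5, 281.2 and 276.1 in IVF morulae (log2 difference -2.55, SE 0.50, limma adjusted p = 0.01818). The adjusted p was 0.06305, 0.05019 and 0.05011 without IVF morula replicates 2, 3 and 4. The member ENSBTAG00000005848 had 36.7, 12.5 and 9.1 in scNT morulae, against 54.0, 89.2, 95.1 and 65.2 in IVF morulae (log2 difference -2.12, SE 0.46, limma adjusted p = 0.02008). Its adjusted p was 0.06978, 0.05598 and 0.05144 without the same replicates. In both members scNT morula replicate 4 was the lowest library, and over all members it lay below both other scNT morulae for 96 of 143.

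Whether the fall from 8-cell embryo to morula differed between the methods was tested as an interaction, added after the values of both steps had been seen. A steeper fall in scNT embryos was called for 92 of 143 members and a less steep one for 0, where 13.4% of 14519 genes had a lower and 4.77% a higher scNT step (limma, n = 3 scNT morulae and 4 in each other group). The median difference between the steps was -1.45 on the log2 scale for the members and -0.02 for all genes. At an unadjusted p under 0.05 the counts were 109 and 0, edgeR called 87 and 0 and DESeq2 96 and 0. Without scNT 8-cell replicate 3 the count was 59, without scNT morula replicate 4 it was 53, and without IVF morula replicate 2 it was 61. Without the libraries numbered 1 in all groups together, an alternative added after seeing the data, it was 10. Across the members the changes in the 2 methods correlated at r = 0.472, a description across genes. The steeper scNT step was not particular to the members. The mean log2 level of the lost genes that were not regained went from 9.30 to 6.83 in scNT embryos. In IVF embryos it went from 8.86 to 7.85. The 8-cell embryos from which the steps start differed in the other direction, since 15 members had a lower median in scNT than in IVF 8-cell embryos.

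From the scNT morula to the scNT blastocyst the members' levels were lower still. By limma 71 of 136 members tested fell and 5 rose, where 26.1% of all 13236 genes fell and 21.6% rose (n = 4 and 3). The median log2 change was -1.03 for the members and -0.09 for all genes. With equal library totals 92 members fell and 3 rose, as the median of all genes moved to -0.49. The filter on low values had been passed by 30 members through the morulae alone and by 4 through the blastocysts alone. With no filter 75 of all 143 fell and 5 rose.

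The member ENSBTAG00000014124 was among those lost late. It had 6.6, 23.2, 16.9 and 5.1 normalized counts in scNT blastocysts, against 191.0, 168.2 and 228.2 in scNT morulae (log2 change -4.04, SE 0.49, limma adjusted p = 3.476e-04). The scNT morulae were thus close to the oocytes, at 184.5 to 277.5, and the blastocysts far below. The member ENSBTAG00000005356 had 11.6, 18.6, 16.9 and 3.8 in scNT blastocysts, against 95.0, 113.4 and 226.7 in scNT morulae (log2 change -3.49, SE 0.53, limma adjusted p = 9.771e-04). In scNT derived cells the pair had 123.1 to 379.6 and 141.5 to 273.7, and in IVF derived cells 72.4 to 300.3 and 82.1 to 341.6.

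A few members had already turned upward in scNT blastocysts. The member ENSBTAG00000008683 had 734.1, 594.7, 728.0 and 1050.8 normalized counts in scNT blastocysts, against 250.2, 269.1 and 167.7 in scNT morulae (log2 change 1.76, SE 0.23, limma adjusted p = 4.638e-04). Its derived cells reached 2550.4 to 4058.0. The member ENSBTAG00000009902 had 1582.6, 1149.0, 1744.1 and 2742.1 in scNT blastocysts, against 617.1, 815.9 and 450.3 in scNT morulae (log2 change 1.49, SE 0.30, limma adjusted p = 0.004295). For both members the groups did not overlap. In IVF blastocysts, chosen to be low, they stood at 324.5 to 411.1 and 844.5 to 1618.3.

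The fibroblasts, the donor cell type of the scNT embryos, held the members at very uneven levels. Relative to the oocyte median, the fibroblast median was at or under 25% for 45 members, between 25% and 50% for 22, between 50% and 200% for 45 and over 2 times for 31. Without fibroblast replicate 3 these counts were 48, 14, 49 and 32. With all 4 fibroblast libraries, 31.5% of the members were at or under 25% and 21.7% were over 2 times. Over the 7779 genes above the oocyte minimum these shares were 29.3% and 17.3%, so the spread was not particular to the members. Among the 1901 lost genes that were not regained they were 73.1% and 2.31%. The median level in scNT derived cells was near that of oocytes in both members low and members high in fibroblasts. The median member stood at 100.5% of oocytes in scNT derived cells among the 45 members low in fibroblasts and at 106.5% among the 31 members high in them. The median levels of these members in fibroblasts were 7.2 and 1034.8 normalized counts. In IVF derived cells, which the rule required to reach at least 50% of oocytes, the median members stood at 129.5% and 121.7%. Derived-cell levels of the 2 methods were alike across the members (r = 0.926), so levels near oocytes were favoured by the choice of members. Low values in scNT derived cells were unevenly spread: among the 45 members low in fibroblasts 5 were at or under 25% of oocytes and 4 between 25% and 50%, against 0 and 2 among the 31 high in fibroblasts. This difference was not tested.

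By limma 60 of 142 members tested (42.3%) were higher and 30 (21.1%) were lower in scNT derived cells than in fibroblasts (n = 4 and 4). Of all 12583 genes 23.8% were higher and 22.3% were lower, so the share of members that were lower was near that of all genes. The median log2 difference was 1.06 for the members and 0.03 for all genes. A total of 30 members had passed the filter through the derived cells alone, and with no filter the counts over all 143 were 58 and 30. Without fibroblast replicate 3 they were 79 and 42 of 142, where 3933 of 12937 genes were higher and 3851 were lower. The scNT derived-cell median was at least 10 times the fibroblast median for 37 members, and the fibroblast median at least 10 times the derived-cell one for 4.

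The member ENSBTAG00000015460 was near 0 in fibroblasts, with 1346.9, 845.2, 1110.1 and 888.9 normalized counts in scNT derived cells, against 2.0, 0.0, 0.8 and 0.8 in fibroblasts (log2 difference 9.19, SE 0.36, limma adjusted p = 3.165e-07). Its oocytes had 757.2 to 820.1 and its scNT blastocysts 9.9 to 41.8. The member ENSBTAG00000011733 had 665.7, 517.2, 646.1 and 636.1 in scNT derived cells, against 2.0, 0.7, 2.4 and 0.0 in fibroblasts (log2 difference 8.23, SE 0.40, limma adjusted p = 1.09e-06). In both, derived cells resembled oocytes in level and fibroblasts held almost no RNA. Fitted changes of genes this close to 0 depend on the pseudocount.

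In the other direction, ENSBTAG00000018810 had 365.1, 345.4, 508.6 and 796.3 normalized counts in scNT derived cells, against 5851.0, 12997.8, 12031.5 and 11861.5 in fibroblasts (log2 difference -4.42, SE 0.34, limma adjusted p = 1.662e-05). The member ENSBTAG00000017662 had 83.3, 54.2, 71.7 and 62.9 in scNT derived cells, against 816.4, 850.5, 1078.4 and 883.6 in fibroblasts (log2 difference -3.73, SE 0.18, limma adjusted p = 1.006e-06). For both, all fibroblast libraries lay above all derived-cell libraries. The first spread widely in oocytes, at 301.2, 481.4, 58.3 and 160.0.

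**Figure D5:**
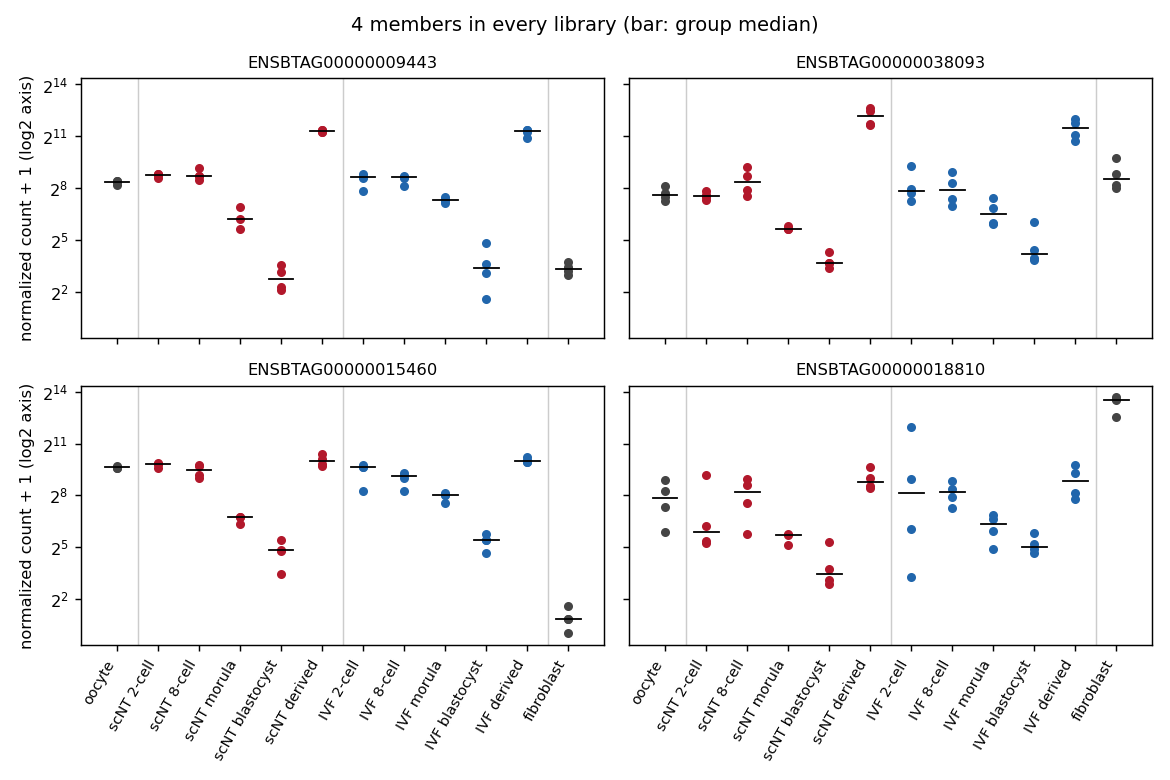
Each panel shows 1 member in all 47 libraries, as normalized count + 1 on a log2 axis by group, with a bar at the group median; scNT groups are red, IVF groups blue, oocytes and fibroblasts grey. All 4 members were low in blastocysts and high in derived cells, while fibroblasts lay near 0 for ENSBTAG00000015460, low for ENSBTAG00000009443, above the oocyte median for ENSBTAG00000038093 and highest of all groups for ENSBTAG00000018810. The early libraries of ENSBTAG00000018810 are scattered, with IVF 2-cell replicate 3 at 3989.8.

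The only 2 members at or under 25% of the oocyte level in both 2-cell groups were ENSBTAG00000017863 and ENSBTAG00000018347, named after their values had been seen. The first had 4.0, 22.1, 29.8 and 7.3 normalized counts in scNT 2-cell embryos and 2.9, 10.2, 241.3 and 26.4 in IVF 2-cell embryos, against 214.4, 164.9, 171.3 and 194.4 in oocytes. The second had 0.8, 0.8, 90.5 and 0.0 in scNT and 1.0, 0.0, 28.9 and 55.6 in IVF 2-cell embryos, against 193.4, 293.3, 68.1 and 72.5 in oocytes. Both were at 11414.5 and 10077.8 in fibroblast replicate 3 and at most 4.5 and 9.8 in every other fibroblast library. Their scNT derived-cell libraries spread from 4.8 to 142.1 and from 32.2 to 356.7, a wide range within 1 group.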

How the data were processed

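Values were the deposited signal table, 1 normalized count per gene and library with 1 decimal, for 20526 genes. Per the submitters' processing notes, the tools were STAR, DESeq2, FastQC and MultiQC and the genome build UMD3.1. What each tool did, its version, the annotation and the counting of reads are not given in the sources used. Per the labels' protocols, a low-input kit with several rounds of PCR turned RNA over 200 nt into sequencing libraries, and the labels give differing numbers of pools. Deposited values in 46 libraries were whole multiples of a step, and at least 97.2% of low values came out whole within a tolerance of 0.1 of a step. Fibroblast replicate 1 did not give whole reads, so edgeR and DESeq2 were not run against fibroblasts. Reads are not independent molecules, so depth covers counting error only. Counts of all 66 replicate pairs differed beyond sampling noise (chi-square over its degrees of freedom at least 6.67).

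Groups came from the sample titles. A gene was tested when its value reached 10 in a number of libraries equal to the size of the smaller group. The test was limma 3.58.1 (trend, robust; R 4.3.3) on log2(value + 1), two-sided, with Benjamini-Hochberg adjustment over all genes tested and only the groups compared. A member was called at an adjusted p under 0.05. This scale understates changes of low genes. The alternatives were pseudocounts of 0.5 and 5, no filter, equal library totals, a replicate block, leaving out each library, and edgeR 4.0.16 and DESeq2 1.42.0 on recovered reads. The fits were tested on simulated data. Members were named where they were called, averaged 50 or more over both groups and had groups that did not overlap, ordered by log2 change, at most 2 per direction, with the members nearest the thresholds. The rule's request for symbols could not be applied, and the lists of markers and pathways were not used. The members and lists were chosen with earlier results of these data known.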

Additional observations from a re-analysis of the deposited data

Results flagged for a closer look

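Among 35 sets of 4 libraries, 3 had a library far from the others by Dixon's gap test at its 95% critical value, and chance gives about 1 in 20. The members' mean log2 level was 4.623 in scNT blastocyst replicate 2, below the other scNT blastocysts. The member ENSBTAG00000027181 had 195.9 normalized counts in IVF morula replicate 1, below the other IVF morulae. The member ENSBTAG00000018810 had 5851 normalized counts in fibroblast replicate 1, below the other fibroblasts.

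The steps from 8-cell embryo to morula differed between scNT and IVF embryos for 92 of 143 members by the test of the difference itself (limma, adjusted p under 0.05), all with a lower scNT step. This count was 53 to 101 without single libraries and 10 without all libraries numbered 1. The mean level of the lost genes that were not regained also fell more steeply in scNT embryos.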

How the results depend on the processing

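From 8-cell embryo to morula 129 to 135 members fell in scNT and 94 to 126 in IVF embryos without single libraries. For scNT derived cells against scNT blastocysts, 141 to 142 members were higher and 0 to 1 lower (1 without scNT derived-cell replicate 3). From scNT morula to blastocyst, 4 to 6 rose and 52 to 91 fell without single libraries, and 3 rose with equal library totals. For scNT against IVF morulae 1 to 72 members were lower, and for the difference between steps 53 to 101. Scaling to equal library totals put the all-gene median at 0.26 for scNT derived cells against scNT blastocysts, -0.11 for scNT against IVF morulae and 0.22 for scNT derived cells against fibroblasts, and 141, 82 and 66 members were higher, lower and higher. On recovered reads edgeR called 65 and DESeq2 92 members lower in scNT than in IVF morulae, and 141 higher each in scNT derived cells than in scNT blastocysts. Against fibroblasts 52 to 79 members were higher and 25 to 42 lower, and edgeR and DESeq2 were not run.

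In the pairwise comparisons of groups, libraries with the same replicate number deviated together little or not at all (r from -0.23 to 0.21). The scNT and IVF 8-cell embryos, which meet only in the test of the difference between steps, were not checked in this way. In both, replicate 2 had the lowest mean log2 level of the members, at 8.24 in scNT and 7.67 in IVF embryos. Whether the numbers pair the libraries is therefore not settled. With a replicate block, which also drops the libraries numbered 1 where scNT morulae enter, 3 members rose from scNT morula to blastocyst, 0 were lower in scNT than in IVF morulae and 0 differed between steps. The same libraries without the block gave 4, 40 and 10, so part of each move came with the smaller set of libraries. Among values of named members under the alternatives, 216 kept their direction and call and 8 kept their direction only, all for ENSBTAG00000027181 and ENSBTAG00000005848 in morulae. No value changed direction.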
